A study of Mus musculus with 18 samples.

Results

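The insulin-like growth factor (IGF) axis was followed through 10 genes, namely the ligands Igf1 and Igf2, the receptors Igf1r and Igf2r, and the binding proteins Igfbp2, Igfbp3, Igfbp4, Igfbp5, Igfbp6 and Igfbp7. Members were the rows of the expression table that carried one of these symbols, and all 10 were found among 14521 named genes. The samples came from 6 female littermates of SKH-1E, a hairless outbred mouse strain, that had been exposed over a long period to simulated sunlight, with tissue taken after the exposure had ended. Each mouse gave 1 sample of irradiated skin without a lesion (CHR), 1 papilloma (PAP), a benign epidermal growth, and 1 cutaneous squamous cell carcinoma (SCC), so that each group had 6 libraries. All samples, those of the CHR group included, were therefore irradiated skin, no unexposed skin was among them, and no transgene or drug was used. The mice are named by their numbers 2, 3, 7, 8, 9 and 10, and groups were compared within these numbers.

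IGF1 and IGF2 are secreted growth factors that bind the receptor tyrosine kinase IGF1R, which signals through insulin receptor substrates to PI3K, AKT and mTOR and favours growth and survival. IGF2R, the mannose 6-phosphate receptor, carries IGF2 to the lysosome for breakdown and does not signal as a kinase. The binding proteins hold IGFs outside the cell, where they prolong their half-life or keep them from the receptor, until proteases release them. In skin, IGF1 is made mainly by dermal cells and acts on keratinocytes of the epidermis and hair follicle.

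Values below are normalised reads, that is, reads recovered from the deposited expression score and divided by a size factor for the depth of each library, which ranged from 15.42 to 21.01 M reads. Fold changes are on the log2(score + 1) scale, on which a change of a weakly expressed gene appears smaller than in reads. They are given with their standard error and with adjusted p-values of limma (a linear model across all genes, two-sided, with the mouse as a block), and a gene was called at an adjusted p under 0.05. The cell make-up of the samples differed between groups. The summed level of 10 fibroblast markers, led by the collagen genes Col3a1 and Col1a2, was 151000 to 340600 in CHR, 6820 to 188500 in PAP and 21850 to 555000 in SCC, and none of these markers was at 0 in any library. The 12 skeletal muscle markers summed to at least 365000 in CHR but to at most 27530 in PAP, and 10 macrophage markers to at least 46890 against at most 9923. The carcinoma of mouse 10 stood apart from its group. On the first principal component, which carried 56.6% of the variance, it lay at 59.9, among the papillomas (36.3 to 92.1), whereas the other carcinomas lay between -15.6 and 28.8. It was the lowest carcinoma for 8 of the 10 genes, and each result on carcinomas is therefore also given without it where the call changes.

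Between papilloma and irradiated skin, 7 of the 10 genes differed, 5 of them lower (Igf1, Igfbp4, Igfbp5, Igfbp6 and Igfbp7) and 2 higher (Igf1r and Igfbp3). Much of the transcriptome differed as well, since 52.6% of all genes were called, 29.3% lower and 23.3% higher. The groups did not overlap for 2 members (Igf1 and Igfbp5), against 33.8% of all genes. The median log2 fold change of the 10 members was -0.74, and that of all genes was 0.0. Between carcinoma and papilloma, 6 members were called (Igf1, Igf2, Igfbp3, Igfbp4, Igfbp5 and Igfbp7), all of them higher in carcinoma, where 9.85% of all genes were called, 8.75% higher and 1.1% lower. No member was free of overlap in that comparison, and neither were most genes, with 0.413% not overlapping. The members' median was 1.23, against -0.02 for all genes.

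Of the 6 members called between carcinoma and papilloma, 5 were higher in 6 of 6 mice and Igfbp4 in 5. With each mouse left out in turn their log2 fold changes kept their direction, at 1.31 to 1.58 for Igfbp3, 1.13 to 1.48 for Igfbp7, 1.45 to 2.2 for Igfbp4, 1.69 to 2.56 for Igfbp5, 1.28 to 1.94 for Igf1 and 0.76 to 1.31 for Igf2. The calls were less stable than the sizes. All 6 were lost, leaving 0 calls, without mouse 7, without mouse 8 and in a fit of these 2 groups alone, and without mouse 3 only Igfbp3 was called, which left 1. In those 3 settings limma called 0 genes of the whole table, with 2450 (without mouse 7), 2594 (without mouse 8) and 2830 (the 2 groups alone) at an unadjusted p under 0.05. Without the mouse as a block, 810 genes in place of 1430 were called, and 4 members. Between carcinoma and irradiated skin 3 members were called, Igf1r and Igfbp3 higher and Igfbp5 lower, where 38.4% of all genes were called, 15.8% higher and 22.7% lower. One member (Igfbp3) was free of overlap, against 19.8% of all genes, and the members' median was 0.25, against -0.02. The 3 comparisons share their samples, so that a fall in papilloma enters both of the first 2.

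**Figure D1:**
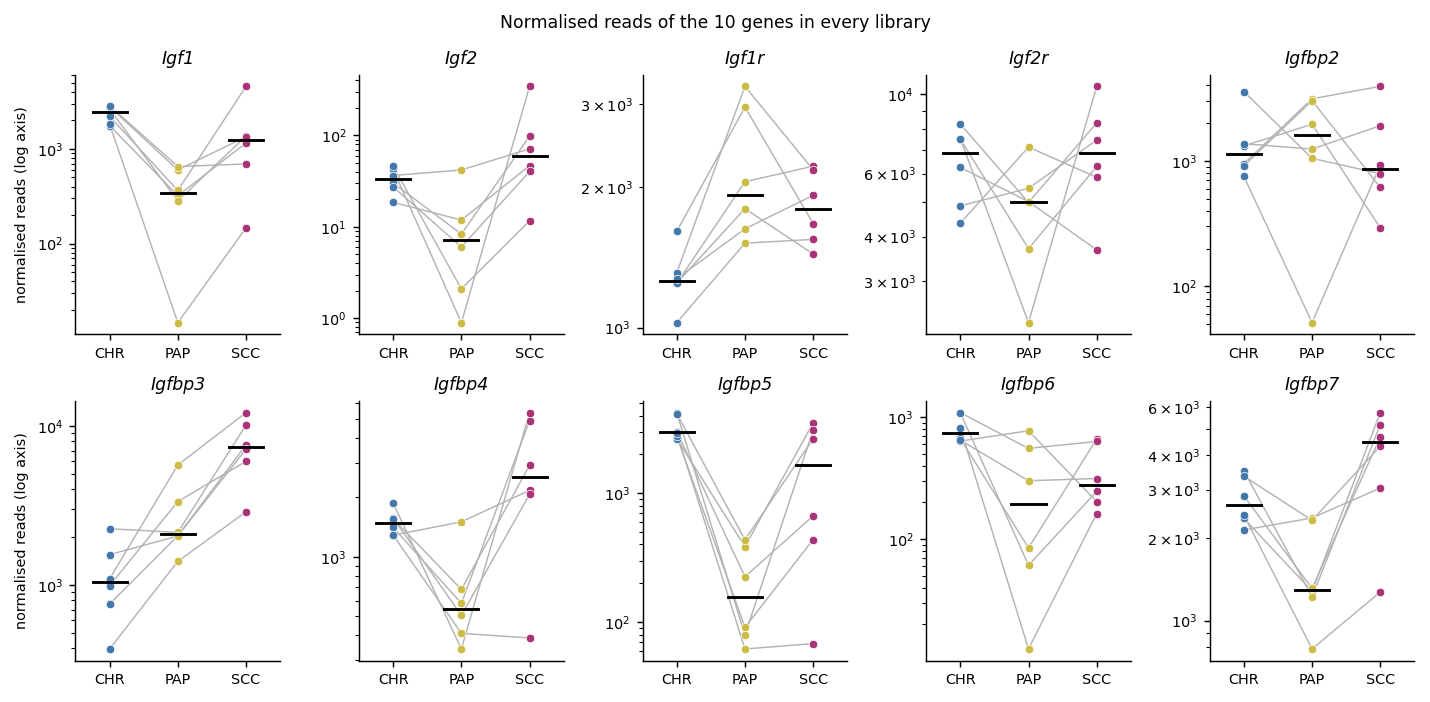
Normalised reads (log axis) of each of the 10 genes in the 18 libraries, by group, where points are libraries, grey lines join the samples of 1 mouse and black bars are group medians. Igfbp3 has its lowest median in CHR (1041) and its highest in SCC (7381), whereas Igf1, Igfbp5 and Igfbp7 have their lowest medians in PAP.

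**Figure D2:**
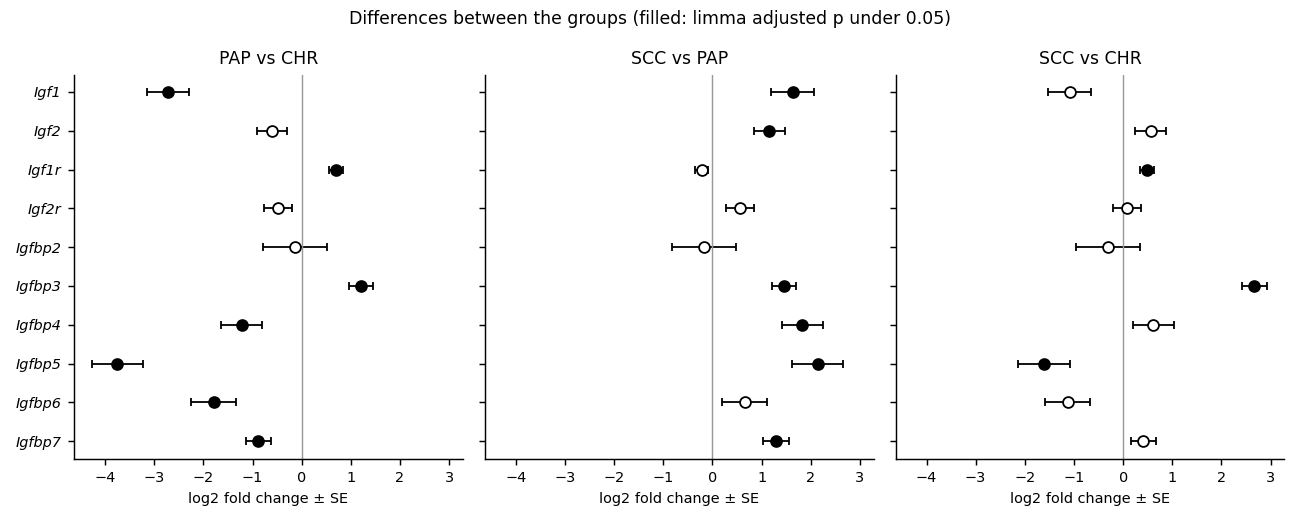
Log2 fold change with its standard error for each gene in the 3 comparisons, with filled points for a limma adjusted p under 0.05. Igf1 (-2.72) and Igfbp5 (-3.75) lie farthest to the left in PAP vs CHR, and Igfbp3 (2.67) lies farthest to the right in SCC vs CHR.

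Igf1 (chr10:87858265-87937042, forward strand, GRCm38), the main ligand, ranged in irradiated skin from 1764 to 2852 normalised reads with a median of 2422. In papillomas it ranged from 14.7 to 652 with a median of 343, and in carcinomas from 147 to 4570 with a median of 1248. Every papilloma thus lay below every sample of irradiated skin, and the papilloma and the carcinoma of mouse 10 were the lowest of their groups. The fall in papilloma was -2.72 ± 0.43 on the log2 scale (limma adjusted p = 0.000172), and means of 373 and 2345 gave a 6.29-fold difference, in the same direction in 6 of 6 mice. Within mice, carcinoma was higher than its papilloma in 6 of 6, although by a factor of only 1.06 in mouse 9, with a log2 fold change of 1.63 ± 0.43 (limma adjusted p = 0.0312). That call was lost without mouse 2, 3, 7 or 8 (limma adjusted p from 0.0618 to 0.143) and without the mouse as a block (0.0997). Carcinoma and irradiated skin overlapped widely, because the carcinoma of mouse 2 held more Igf1 than any skin sample while the other 5 lay below all of them, and the difference of -1.09 ± 0.43 did not pass (limma adjusted p = 0.06). Without mouse 2 it passed, at -1.51 (limma adjusted p = 0.0111).

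Igf2 (chr7:142650766-142666816, reverse strand), the imprinted growth factor of fetal life, was scarce. Irradiated skin held 18.6 to 46.1 normalised reads (median 33.3), papillomas 0.895 to 41.9 (median 7.19) and carcinomas 11.6 to 345 (median 59.1). In reads, the papillomas of mice 3 and 10 rested on 1 and 2 reads, and the highest carcinoma, that of mouse 3, on 394. Carcinoma was higher than papilloma in 6 of 6 mice, with a log2 fold change of 1.16 ± 0.31 on the score scale (limma adjusted p = 0.0328), and group means of 102 and 11.9 differed 8.61-fold. A fit on the recovered reads (limma with voom weights and TMM scaling) gave 3.20 for the same difference (adjusted p = 0.0186), and the call was lost without mouse 2, 3, 7 or 8 (limma adjusted p from 0.0547 to 0.146). Papilloma against irradiated skin did not pass on the score scale (-0.60, limma adjusted p = 0.118) but did in reads (-1.99, limma with voom, adjusted p = 0.0447). It also passed on the score scale in a fit of these 2 groups alone with the mouse as a block (-0.60, limma adjusted p = 0.0257), whereas quantile normalization left a difference of -0.08 (limma adjusted p = 0.834). GENCODE places 2 further transcripts on the strand of Igf2 (Gm49394 and Mir483) and Igf2os opposite to it, Igf1os lies opposite to Igf1, and the strandedness of the counting was not stated, so that reads from shared stretches cannot be told apart.

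Per kilobase of exon, which allows genes to be compared, irradiated skin held 237 ± 48.8 (SD, n = 6) normalised reads of Igf1 and 5.86 ± 1.79 of Igf2, with no overlap. The median over libraries of the ratio of Igf1 to Igf2 per kilobase was 47.8 in CHR (22.8 to 68.9), 18.6 in PAP (4.04 to 207) and 7.66 in SCC (1.93 to 56.5). The ranges of the 3 groups overlapped, and the papilloma ratios with 1 or 2 Igf2 reads carry little precision.

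Igf1r (chr7:67952827-68233668, forward strand), the signalling receptor, ranged from 1025 to 1605 normalised reads in irradiated skin (median 1258), from 1515 to 3277 in papillomas (median 1923) and from 1437 to 2213 in carcinomas (median 1793). It was higher than in the skin of the same mouse in 6 of 6 papillomas and in 6 of 6 carcinomas, and the group ranges overlapped only because the skin of mouse 3 was high. The log2 fold changes were 0.70 ± 0.14 for papilloma (limma adjusted p = 0.00123) and 0.48 ± 0.14 for carcinoma (limma adjusted p = 0.0183), the second of which was lost without mouse 7 (0.41, limma adjusted p = 0.0691). Carcinoma and papilloma did not pass a test of their difference (-0.22 ± 0.14, limma adjusted p = 0.375), with 3 mice in each direction. Thus Igf1r was the only ligand or receptor gene called higher in papilloma, while Igf1 was called lower in the same samples.

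Igf2r (chr17:12682406-12769664, reverse strand), the clearance receptor, passed no comparison. Its medians were 6867 normalised reads in CHR (4360 to 8254), 4997 in PAP (2299 to 7116) and 6866 in SCC (3673 to 10520), and the groups overlapped throughout. The log2 differences were -0.48 ± 0.29 for papilloma against skin (limma adjusted p = 0.185), 0.56 ± 0.29 for carcinoma against papilloma (0.257) and 0.08 ± 0.29 for carcinoma against skin (0.842). Per kilobase of all exons, Igf2r exceeded Igf1r in every library, with a median ratio of 8.65 in CHR (6.72 to 12.0), 4.05 in PAP (1.4 to 8.47) and 6.81 in SCC (3.46 to 11.4). The lowest ratio was that of the papilloma of mouse 3, with 2299 normalised reads of Igf2r and 2959 of Igf1r. With the longest transcripts (8887 and 11409 bases) as the length, the 2 genes were about level there. The antisense transcript Airn overlaps Igf2r and is not separated from it here.

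Igfbp3 (chr11:7206086-7213923, reverse strand), which carries most IGF in the circulation, was the only member called higher at each step. Irradiated skin ranged from 395 to 2257 normalised reads (median 1041), papillomas from 1406 to 5686 (median 2089) and carcinomas from 2887 to 12140 (median 7381). Every carcinoma exceeded every skin sample, and even the carcinoma of mouse 10, the lowest of its group, held more Igfbp3 than any skin. Papilloma was higher than skin in 5 of 6 mice, by 1.21 ± 0.25 on the log2 scale (limma adjusted p = 0.00142), the exception being mouse 3 with a ratio of 0.949. Carcinoma was higher than papilloma in 6 of 6 mice, by 1.79- to 4.74-fold within mice and by 1.46 ± 0.25 (limma adjusted p = 0.01), a call that was lost without mouse 7 (0.0687) or mouse 8 (0.0794). From skin to carcinoma the difference was 2.67 ± 0.25 (limma adjusted p = 1.98e-05), and the means of 7656 ± 3230 and 1174 ± 653 (SD, n = 6) gave a 6.52-fold difference. This last call held in every setting that was tried, with log2 fold changes of 2.53 to 2.78 when each mouse was left out.

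Igfbp5 (chr1:72857932-72874884, reverse strand), a binding protein of connective tissue and muscle, showed the largest fall of the 10. It ranged from 2649 to 4211 normalised reads in irradiated skin (median 2962), from 61.9 to 434 in papillomas (median 158) and from 68.0 to 3512 in carcinomas (median 1654). Every papilloma lay below every skin sample, whereas carcinomas were split, with mice 2, 7 and 8 at 2642 or above and mice 3, 9 and 10 at 666 or below. The fall in papilloma was -3.75 ± 0.52 (limma adjusted p = 5.91e-05), a 15.4-fold difference of means, in 6 of 6 mice. Carcinoma was higher than papilloma by 2.14 ± 0.52 (limma adjusted p = 0.0235), although only 1.1-fold in mouse 10, and this was lost without mouse 3, 7 or 8 (0.0627 to 0.124) and without the mouse as a block (0.0552). Carcinoma was lower than irradiated skin in 5 of 6 mice, by -1.61 ± 0.52 (limma adjusted p = 0.0257), which was lost without mouse 3, 9 or 10 (0.0778 to 0.0979), without the carcinoma of mouse 10 alone (-1.12, limma adjusted p = 0.055), without the block (0.0556) and in a fit of these 2 groups alone (0.0584).

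Igfbp4 and Igfbp7 fell in papilloma and were higher in carcinoma. Igfbp4 (chr11:99041244-99054392, forward strand), an inhibitor of IGF action that the protease pappalysin cleaves, ranged from 1287 to 1873 normalised reads in skin (median 1484), from 341 to 1505 in papillomas (median 543) and from 388 to 5387 in carcinomas (median 2545). The papilloma of mouse 2 stood among the skin samples and the carcinoma of mouse 10 among the papillomas. Papilloma was lower by -1.22 ± 0.42 (limma adjusted p = 0.0272), a call lost without mouse 7, 8 or 9 (0.0613 to 0.0809), and carcinoma was higher than papilloma by 1.83 ± 0.42 (limma adjusted p = 0.02), lost without mouse 3, 7 or 8 (0.0825 to 0.108). Against skin, carcinoma was not called over 6 mice (0.61 ± 0.42, limma adjusted p = 0.274) but was called higher without the carcinoma of mouse 10 (1.01, limma adjusted p = 0.0356).

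Igfbp7 (chr5:77349240-77408041, reverse strand), a low-affinity binder found around vessels and in stroma, ranged from 2137 to 3512 normalised reads in skin (median 2634), from 788 to 2364 in papillomas (median 1294) and from 1270 to 5720 in carcinomas (median 4488). Apart from that of mouse 10, each carcinoma exceeded every papilloma. The differences were -0.88 ± 0.26 for papilloma against skin (limma adjusted p = 0.0121), 1.29 ± 0.26 for carcinoma against papilloma (0.0132) and 0.41 ± 0.26 for carcinoma against skin, which did not pass (0.233). The second was lost without mouse 3, 7 or 8 (limma adjusted p from 0.0521 to 0.0909). Igfbp7 overlaps Polr2b, an RNA polymerase subunit gene on the opposite strand.

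Igfbp6 (chr15:102144362-102149511, forward strand), which prefers IGF2, ranged from 637 to 1090 normalised reads in skin (median 743), from 12.6 to 774 in papillomas (median 193) and from 162 to 663 in carcinomas (median 281). It was lower in papilloma by -1.79 ± 0.46 (limma adjusted p = 0.0056), in 5 of 6 mice, and the papilloma of mouse 3 lay above 3 of the 6 skin samples. Carcinoma was below the skin of the same mouse in 6 of 6 mice, yet by a ratio of 0.99 in mouse 2, and the difference of -1.13 ± 0.46 did not pass (limma adjusted p = 0.0684). In a fit of skin and carcinoma alone, with the mouse as a block, it was called (-1.13, limma adjusted p = 0.0104). Unlike Igfbp4, Igfbp5 and Igfbp7, it was not called between carcinoma and papilloma (0.66 ± 0.46, limma adjusted p = 0.418), a contrast between genes that was not itself tested.

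Igfbp2 (chr1:72824503-72852474, forward strand), a neighbour of Igfbp5 on chromosome 1, varied widely within each group. It ranged from 751 to 3559 normalised reads in skin (median 1130), from 51.4 to 3117 in papillomas (median 1596) and from 293 to 3914 in carcinomas (median 856). In each comparison 3 mice went up and 3 went down, and the standard error of 0.65 exceeded all 3 log2 differences (-0.13, -0.17 and -0.30, limma adjusted p of 0.877, 0.904 and 0.743).

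The upstream sequences of the binding protein genes that moved most are given to show the region that a promoter would occupy. They are RefSeq promoters of GRCm38.p6, printed 5′ to 3′ on the strand of the gene and ending at the annotated gene start, with the TATA box motif (TATAAA) in capitals. Bases that GENCODE places within the transcript were left out.
Igfbp3, chr11:7213924-7214023: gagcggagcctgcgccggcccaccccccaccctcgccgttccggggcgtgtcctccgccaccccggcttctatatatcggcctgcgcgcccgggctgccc
Igfbp4, chr11:99041144-99041243: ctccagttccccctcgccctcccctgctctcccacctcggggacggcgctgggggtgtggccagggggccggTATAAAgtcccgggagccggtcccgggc
Igfbp5, chr1:72874885-72874965: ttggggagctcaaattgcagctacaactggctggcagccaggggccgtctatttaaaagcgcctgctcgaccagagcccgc
TATAAA occurred in the 250 bases before the start in 12.4% of 32851 promoters, searched on both strands, and that of Igfbp4 began 28 bases before the start. The same windows of Igfbp3 and Igfbp5 held neither this exact string nor the GC box (GGGCGG, 32.7% of promoters), the CCAAT box (CCAAT, 33.8%), the E-box (CACGTG, 6.02%) or the AP-1 site (TGACTCA or TGAGTCA, 4.46%). Variants of TATAAA were not searched, and similar stretches stand in the printed sequences of Igfbp3 (tatatat) and Igfbp5 (tatttaaaa). The absence of the string is thus not the absence of a TATA box. GC content was 73.2% for Igfbp3 and 58.8% for Igfbp5, against a median of 52.4% over all promoters. Genes and motifs were picked after the expression values had been seen, and a match or its absence is a description of these letters.

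The make-up of the binding protein transcripts changed with the group. Summed per kilobase, the 6 genes gave 5090 ± 1050 normalised reads in CHR, 3560 ± 1440 in PAP and 7840 ± 2620 in SCC (SD, n = 6). With all exons as the length, Igfbp7 was the most abundant of the 6 in 6 of 6 skin samples (45.3% ± 4.97 of the sum), in 4 papillomas and in 5 carcinomas. Igfbp2 led in the papillomas of mice 3 and 7, and Igfbp3 led in the carcinoma of mouse 9. Which gene led depended on the length. With the longest transcript, Igfbp2 (1307 in place of 1847 bases) also led in the skin of mouse 8 and in the papilloma and the carcinoma of mouse 2. In the same way Igfbp3 (2421 in place of 3130 bases) also led in the papilloma of mouse 9 and in the carcinoma of mouse 10. With that length Igfbp7 thus led in fewer libraries of each group. The share of Igfbp3 was 7.49% ± 4.53 in CHR (3.12 to 15.8), 25.9% ± 9.5 in PAP (16.1 to 39.2) and 31.3% ± 6.29 in SCC (23.3 to 41.1). With this length skin did not overlap either lesion, whereas the lesions overlapped each other. The gap to papilloma was narrow, between the skin (15.8) and the papilloma (16.1) of mouse 3. With the longest transcript as the length, the skin of mouse 3 lay above its papilloma, so that these groups overlapped. The share of Igfbp5 was 10.8% ± 1.39 in CHR (8.14 to 12.0), 1.05% ± 0.84 in PAP (0.328 to 2.62) and 3.45% ± 2.99 in SCC (0.417 to 7.11), again with every lesion below every skin sample. Relative to Igf1 per kilobase, the summed binding proteins stood at a median of 22.2 in CHR (17.6 to 25.6), 123 in PAP (45.5 to 838) and 75.0 in SCC (17.8 to 183). Only the carcinoma of mouse 2 was within the range of skin. These shares are descriptions without a test.

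**Figure D3:**
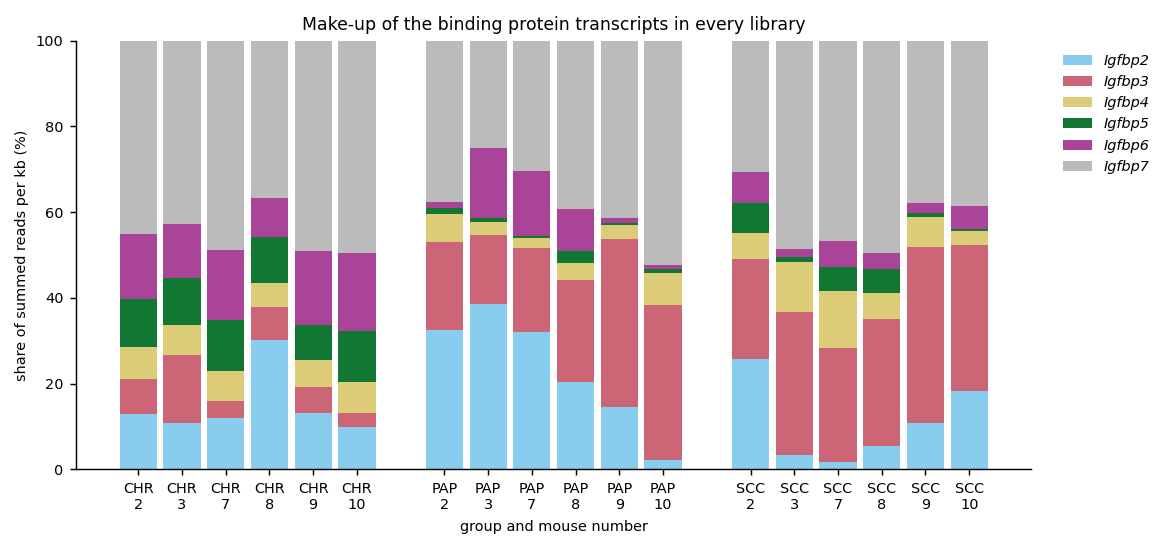
Share of each binding protein gene in the summed normalised reads per kilobase of the 6 genes (vertical axis, percent), 1 bar per library, by group and mouse number. Igfbp3 takes 3.12 to 15.8% in CHR and 23.3 to 41.1% in SCC, and Igfbp5 is at most 2.62% in PAP.

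The members were next set beside the fibroblast markers, of which 7 of 10 were called lower in papilloma (median -2.09) and 4 of 10 higher in carcinoma than in papilloma (median 1.65). Across all genes, 29.3% and 8.75% were called in these directions. In bulk samples, fewer cells of a type and less RNA per cell cannot be told apart. Per 1000 reads of the fibroblast sum, Igf1 stood at 8.26 to 14.6 normalised reads in CHR, 2.15 to 5.96 in PAP and 4.10 to 8.23 in SCC. On this scale papilloma lay below skin without overlap, at means of 10.2 and 4.29, while carcinoma and papilloma overlapped. The sum is dominated by Col3a1 and Col1a2, which made up 64.1% of it, and its mean differed by only -1.5 in log2 between papilloma and skin. Of the 10 markers, 4, named after their values were seen, differed by more than Igf1 (-2.72), namely Dcn (-5.51), Dpt (-4.01), Pdgfra (-3.38) and Lum (-2.83). The others differed by less, from Col3a1 (-2.65) to Fbln1 (-0.19). The ratio thus depends on which markers lead the sum, and whether Igf1 fell by more than fibroblast markers was not tested. Igfbp5 per 1000 was 14.4 ± 3.62 in CHR (8.12 to 17.5), 4.01 ± 3.22 in PAP (0.483 to 9.07) and 5.62 ± 3.23 in SCC (2.37 to 9.39), with overlapping ranges. Igfbp3 went the other way, with 2.34 to 10.6 in CHR, 16.1 to 206 in PAP and 10.8 to 132 in SCC, so that each lesion exceeded each skin sample. A low fibroblast sum raises this ratio for any gene that does not follow the sum. Igf1r per 1000 also lay above skin without overlap in PAP (9.53 to 238, against 3.66 to 7.53 in CHR), though not in SCC (2.78 to 87.7). Igfbp4 and Igfbp7 per 1000 had medians of 7.03 and 12.5 in CHR, 7.19 and 19.4 in PAP and 16.9 and 18.5 in SCC, all with overlap. On this scale the papilloma medians of both genes were thus not below those of skin.

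**Figure D4:**
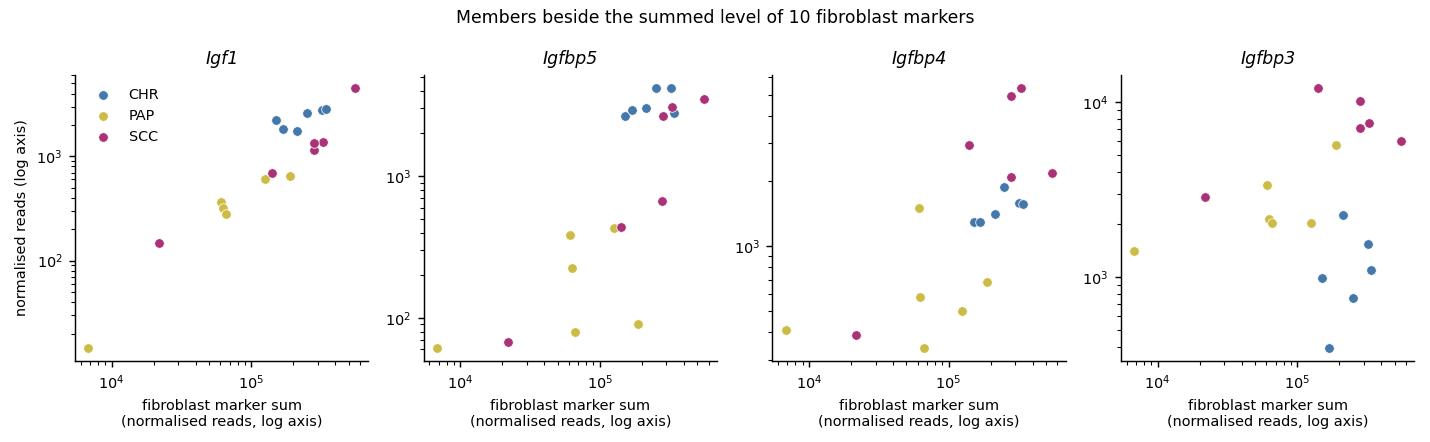
Normalised reads of Igf1, Igfbp5, Igfbp4 and Igfbp3 (vertical log axes) against the summed normalised reads of 10 fibroblast markers (horizontal log axes) in 18 libraries, coloured by group. Among papillomas only that of mouse 9 (188500) lies within the range of fibroblast sums of skin, which starts at 151000. The carcinomas of mice 3, 7 and 8 also lie within it. Every carcinoma, within that range or outside it, lies above every skin sample in Igfbp3. The part of fibroblasts in this was not tested.

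Other cell type markers moved in the same comparisons as the members. Across all genes, 29.3% were lower and 23.3% higher in papilloma. Between carcinoma and papilloma 8.75% were higher and 1.1% lower, and 22.7% were lower in carcinoma than in skin. Of 10 macrophage markers, led by Lyz2 and Mrc1, 10 were lower in papilloma, 9 were higher in carcinoma than in papilloma and 9 were lower in carcinoma than in skin, with sums of 46890 to 75120 in CHR, 1684 to 9923 in PAP and 6028 to 71390 in SCC. All 12 muscle markers fell in papilloma and 11 of 12 were higher in carcinoma than in papilloma, and 5 of them (Ckm, Myh1, Myh2, Pvalb and Casq1) were at 0 in at least 1 library. Their sum in carcinomas was 262 to 186200, and the lowest was that of mouse 10. Of the 10 adipocyte markers, led by Fabp4 and Cfd, 9 fell in papilloma and 9 were lower in carcinoma than in skin. Of those that fell in papilloma, 6 (Adipoq, Lep, Plin1, Cfd, Cidec and Retn) were at 0 in at least 1 library. Their sums were 8996 to 22260 in CHR, 2185 to 13320 in PAP and 1980 to 23000 in SCC for all 10 markers. Fabp4 and Cfd made up 72.0% of the sum. Fabp4, the marker not called in either comparison, had means of 4447, 6129 and 9762 in CHR, PAP and SCC. Of 12 keratinocyte markers, led by Krt14 and Dsp, 8 were higher and 1 lower in papilloma (Krt10, a marker of differentiated layers, at -1.75), with sums of 437100 to 844700 in CHR, 685000 to 1206000 in PAP and 233500 to 764800 in SCC. Between carcinoma and papilloma, 4 of the 12 were lower and none was higher. Between carcinoma and skin, 6 of the 12 were higher and 2 lower, where 15.8% of all genes were higher. The part of muscle, fat, macrophages and keratinocytes in the members' differences was not tested.

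Of 6 measured genes that link growth hormone to Igf1, 4 were called lower in papilloma and 3 lower in carcinoma than in skin, and none was called between the lesions. Across all genes, 29.3% were lower in papilloma, 22.7% were lower in carcinoma than in skin, and 9.85% were called between the lesions. Ghr, the growth hormone receptor, had means of 2250 ± 348, 1142 ± 167 and 1027 ± 84.9 normalised reads in CHR, PAP and SCC, with log2 differences from skin of -0.93 ± 0.11 (limma adjusted p = 2.06e-05) and -1.07 ± 0.11 (2.99e-05). Both lesion groups lay wholly below skin, and between the lesions Ghr differed by -0.14 ± 0.11 (limma adjusted p = 0.496). A link between Ghr and the level of Igf1 was not tested. Stat5a, a transcription factor downstream of it, was lower by -0.75 ± 0.11 in papilloma and -0.65 ± 0.11 in carcinoma, and Socs2, a feedback inhibitor, was lower by -0.92 ± 0.24 in papilloma and did not pass in carcinoma (-0.23 ± 0.24). Of the other receptors, 4 of 10 listed genes were measured. Insr, the insulin receptor, was lower by -0.56 ± 0.16 and -0.63 ± 0.16 in the lesions, Lrp1, a clearance receptor reported to bind Igfbp3, by -1.39 ± 0.29 and -0.97 ± 0.29, and Lrp6, a Wnt co-receptor, by -0.45 ± 0.13 in carcinoma.

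Among 9 proteases of the binding proteins and their inhibitors, 2 were higher and 3 lower in papilloma, 2 were higher in carcinoma than in papilloma, and 3 were higher and 2 lower in carcinoma than in skin. The shares of all genes called in these 3 comparisons were 52.6%, 9.85% and 38.4%. Adam12, a metalloprotease that cleaves Igfbp3 and Igfbp5, had means of 452, 618 and 1718 normalised reads in CHR, PAP and SCC, and differed by 1.58 ± 0.32 between carcinoma and skin (limma adjusted p = 0.00231) and by 1.31 ± 0.32 between carcinoma and papilloma (0.0256). Pappa, the protease of Igfbp4, was named after its values were seen. It had means of 354, 366 and 1033 and was higher in carcinoma than in either sample of the same mouse in 6 of 6 mice (1.21 ± 0.25 against skin, limma adjusted p = 0.00232, and 1.43 ± 0.25 against papilloma, 0.01). Pappa2, its relative, went down from 69.9 ± 25.4 in skin to 2.13 ± 2.43 in papilloma and 12.0 ± 10.9 in carcinoma, and Ctsd, a lysosomal protease, by -1.36 ± 0.24 and -1.23 ± 0.24.

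Downstream of the receptor the changes went both ways, as they did across all genes. In papilloma 23.3% of all genes were higher and 29.3% lower, and in carcinoma against skin 15.8% and 22.7%. Between the lesions 8.75% were higher and 1.1% lower. Of 14 adaptors, 4 were higher and 5 lower in papilloma, and 1 higher and 4 lower in carcinoma than in skin. Irs1, the insulin receptor substrate that couples the receptor to PI3K, had means of 1090 ± 114 in CHR, 262 ± 164 in PAP and 662 ± 340 in SCC, and fell by -1.93 ± 0.32 in papilloma (limma adjusted p = 0.000295). Grb10, an imprinted inhibitor of the receptor, fell by -1.32 ± 0.27 in papilloma and was higher by 1.04 ± 0.27 in carcinoma than in papilloma (limma adjusted p = 0.0316). Irs3, which is known from fat cells, was at 34.2 ± 15.7 in skin and at no more than 0.861 in any papilloma. Of 26 genes of PI3K, AKT and mTOR signalling, 7 were higher and 7 lower in papilloma, 3 higher and 6 lower in carcinoma than in skin, and 1 higher between the lesions. Pik3cd, the PI3K subunit of leukocytes, fell by -2.15 ± 0.23 in papilloma (limma adjusted p = 8.18e-06), whereas Eif4ebp1, a translation repressor and mTOR target, rose by 1.29 ± 0.20 (0.000157) in 6 of 6 mice. The medians of these lists lay between -0.19 and 0.04 in the 3 comparisons, near those of all genes.

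**Figure D5:**
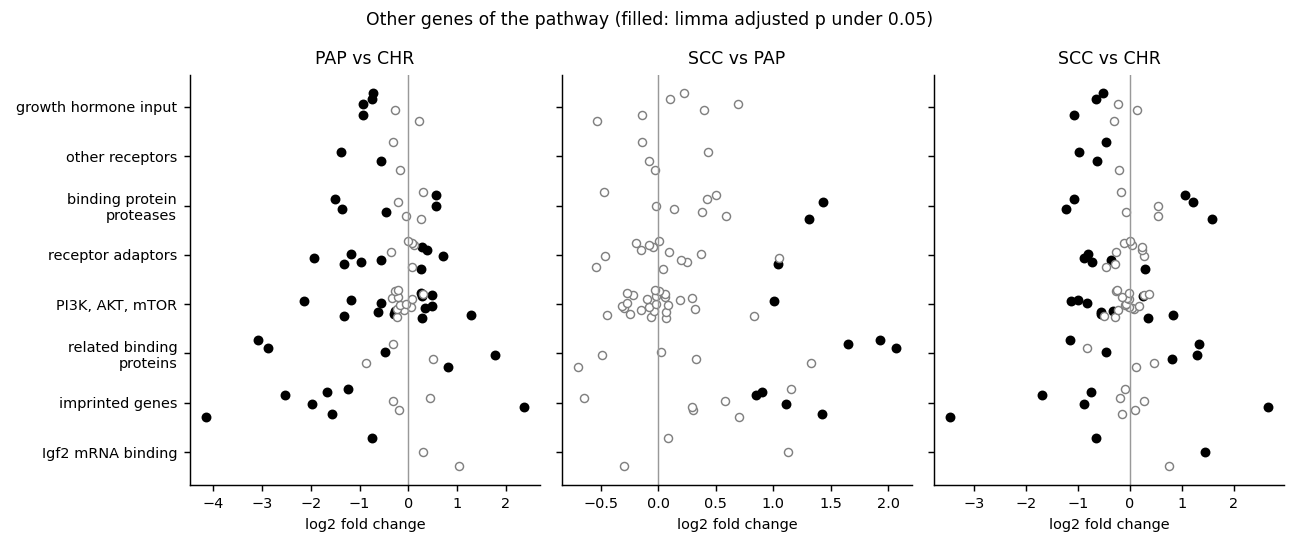
Log2 fold changes of the other genes of the pathway, by list (rows) and comparison (panels, each with its own horizontal axis), 1 point per gene, filled for a limma adjusted p under 0.05. Growth hormone input has filled points only below 0, and PI3K, AKT and mTOR has 7 on each side in PAP vs CHR.

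Of 10 imprinted genes known to be expressed with Igf2 in growing tissue, 6 were lower and 1 was higher in papilloma (median -1.40), 4 were higher in carcinoma than in papilloma, and 1 was higher and 4 lower in carcinoma than in skin. The shares of all genes called in these 3 comparisons were 52.6%, 9.85% and 38.4%. Cdkn1c, a growth-restraining cell cycle inhibitor, fell from 1450 ± 673 normalised reads in skin to 22.5 ± 20.3 in papilloma and 65.5 ± 34.2 in carcinoma (-4.16 ± 0.34 and -3.46 ± 0.34). Ppp1r9a, a neuronal actin-binding protein gene, fell by -2.54 ± 0.23 in papilloma and by -1.69 ± 0.23 in carcinoma. Mest, an imprinted gene for a hydrolase-like protein, went the opposite way, from 39.3 ± 20.4 to 485 ± 206 and 589 ± 190 (2.38 ± 0.22 and 2.67 ± 0.22), each in 6 of 6 mice. Of the 3 genes for proteins that bind Igf2 mRNA, Igf2bp2 rose by 1.44 ± 0.42 in carcinoma against skin (limma adjusted p = 0.0167), Igf2bp1 passed no test, and Igf2bp3 was at 20.1 ± 23.9 in skin and no more than 2.58 in any lesion.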

How the data were processed

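RNA sequencing of 18 skin samples from 6 mice was analysed, grouped by sample title into CHR, PAP and SCC. The authors aligned reads with MOSAIK to mm10 (GRCm38), counted them per gene with HTSeq, scaled the counts and transformed them with DESeq2's variance-stabilizing method, and the deposited values are whole-number scores on the linear scale of that transformation. Their methods also mention a correction of batch medians. Versions, annotation release and strandedness are not given in the sources used here.

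The score of 0 reads is about 39.13, and inverting the transformation gave whole reads (tolerance 0.5) for 99.5% of values, at 15.42 to 21.01 M reads per library (size factors 0.835 to 1.18). This depth limits genes with few reads, and intervals between samples cover the spread between mice. Of 14542 rows, 21 without a symbol (at most 0.236% of a library) were left out. limma 3.58.1 (R 4.3.3) was fitted to log2(score + 1, a pseudocount) of 14521 genes over 18 libraries, with 1 coefficient per group and the mouse as a block, Benjamini-Hochberg adjustment over all genes and a threshold of 0.05. The block follows from the samples of 1 animal. Deviations from group means correlated at a mean of 0.082 (-0.245 to 0.507, 18 pairs) within mice and -0.015 between mice. Scripts were tested on simulated data.

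Gene positions and exon lengths came from GENCODE M21 (GRCm38), where 13851 of the 14521 symbols were found. Shares of binding proteins used exon length. Members, gene lists and design, the block included, were chosen with earlier results of these data known. All 10 members are named, and of each pathway list at most 3 called genes with the largest change from skin. A gene that this rule names is not reported here. Cell type lists are named by at most 2 genes of highest mean. Likeness was the root-mean-square difference of centred log2(score + 1) over 18 libraries, among 13077 genes with a mean score of at least 100. Alternatives were no block, 2 groups only, voom on recovered reads with the deposited or TMM scaling, quantile normalization, log2 of normalised reads, a pseudocount of 50, a mean score of at least 100, array weights, and leaving out each mouse. Leaving out the carcinoma of mouse 10 was added after seeing the data.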

Additional observations from a re-analysis of the deposited data

Results flagged for a closer look

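In 5 of 30 groups of 6 libraries (10 genes in 3 groups), the gap between the highest library and the next, as a share of the range of the group, exceeded the critical value of Dixon's test. For normally distributed values about 1 in 20 such groups is flagged by chance. The gaps here were taken on the linear scale of reads, where values were skewed (SD at 129% of the mean for Igf2 in PAP). The number of flags can therefore not be read against that rate. Igf1 in the carcinoma of mouse 2 was at 4570 normalised reads, with the next carcinoma at 1366. The same carcinoma had the highest fibroblast marker sum of its group, 555000, and the part of that sum in the value was not tested. Igf2 in the papilloma of mouse 9 was at 41.9, on 35 reads, with the next at 11.9, and Igf2 in the carcinoma of mouse 3 was at 345, on 394 reads, with the next at 98.2. Igfbp2 in the irradiated skin of mouse 8 was at 3559, with the next skin sample at 1367. Igfbp4 in the papilloma of mouse 2 was at 1505, with the next papilloma at 684.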

How the results depend on the processing

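Between papilloma and irradiated skin, 6 to 8 members were called under every alternative, and between carcinoma and skin 2 to 4, or 5 with array weights (Igf2 and Igfbp7 in addition). Between carcinoma and papilloma 0 members and 0 genes were called in a fit of the 2 groups alone, and leaving out each mouse gave 0 to 6 members and 0 to 1995 genes (limma called 3570 genes there at an unadjusted p under 0.05 in the fit of all mice, and 2450 to 4022 without each mouse). Without a replicate block 810 genes were called, 2949 with array weights and 2084 without the carcinoma of mouse 10, a choice made after seeing the data. Leaving out mouse 2, 9 or 10 gave 1244, 1608 and 1995 genes, whereas leaving out mouse 7 or 8 gave 0. The cause of these shifts was not tested. Without the block 3 member calls were lost (Igf1 and Igfbp5 between the lesions, Igfbp5 between carcinoma and skin), and the block changed no other member call. The sign of Igfbp2, never called, turned with voom and TMM scaling (0.01 between papilloma and skin), and without each mouse its log2 fold change ran from -0.49 to 0.40, from -0.82 to 0.29 and from -0.76 to 0.05 in PAP vs CHR, SCC vs PAP and SCC vs CHR. Igf2r, also never called, ran from -0.02 to 0.27 in SCC vs CHR. Under quantile normalization the median log2 fold change of all genes in PAP vs CHR was 0.1649, against 0.0014 with the deposited scaling. It moved the higher share of all calls from 44.4 to 62.4% there, from 88.8 to 68.5% in SCC vs PAP and from 41.0 to 57.8% in SCC vs CHR. Under it no member changed direction, the call of Igf2 between the lesions was lost (0.91, limma adjusted p = 0.0782), as it was with a pseudocount of 50 (0.79, limma adjusted p = 0.0521), and Igf2 was called in SCC vs CHR (0.83, limma adjusted p = 0.0372). No share of a binding protein moved by more than 1 SD with the longest transcript in place of all exons or with deposited scores in place of reads. With the longest transcript, however, the leading gene changed in some libraries, and skin and papilloma overlapped for the share of Igfbp3. Depth limits Igf2 most, which rested on 1 to 394 reads.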

Other observations

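Low-affinity relatives of the binding proteins, the CCN family and others, were counted in the same way. Of 8 measured, 2 were higher and 3 lower in papilloma, where 52.6% of all genes were called, 3 were higher in carcinoma than in papilloma, and 3 were higher and 2 lower in carcinoma than in skin. Across all genes, 9.85% were called between the lesions and 38.4% between carcinoma and skin. Wisp2, a CCN protein of stromal cells, had means of 670 ± 251 normalised reads in CHR, 38.0 ± 54.7 in PAP and 327 ± 229 in SCC (SD, n = 6), with log2 fold changes of -3.08 ± 0.43 in papilloma (limma adjusted p = 6.27e-05) and 1.93 ± 0.43 between carcinoma and papilloma (0.0176). Nov, a secreted matrix-associated CCN protein, fell by -2.89 ± 0.55 in papilloma and was higher by 2.07 ± 0.55 in carcinoma than in papilloma (limma adjusted p = 0.0326). Esm1, a proteoglycan of endothelial cells with an IGF-binding domain, rose instead, from 16.7 ± 9.37 in skin to 191 ± 85.3 in papilloma and 116 ± 53.1 in carcinoma, in 6 of 6 mice each.

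The genes with a profile most like that of each member over the 18 libraries were, for Igf1, Timp2, Gpx3 and Mfap4, at a root-mean-square difference of 0.43 to 0.45 on the log2 scale. For Igfbp5 they were Col14a1, Ace and Alpk3 (0.64 to 0.65, against a spread of 1.89 of Igfbp5 itself), and for Igfbp3 Col12a1, Ankk1 and Ptprn (0.66 to 0.68 against 1.28). Igfbp4 lay nearest to Epha3 and Kcnma1 and then to Igfbp7 (0.45 against 1.08), whose own nearest genes were Gpr176, Ikbip and Hs6st2 (0.19 to 0.26 against 0.76). Igf2 was nearest to Cnn1, Fndc4 and Tfpi2 (0.36 to 0.41 against 0.71), Igf1r to Nfkb1, Khsrp and Slc35d1 (0.23 against 0.41), and Igfbp6 to Sulf2, Irf4 and Abca1 (0.48 to 0.57 against 1.13).

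Further marker lists were counted beside the members. Across all genes, 29.3% were lower and 23.3% higher in papilloma, and 8.75% were higher in carcinoma than in papilloma. Of 10 mural cell markers 6 were lower in papilloma and 8 higher in carcinoma than in papilloma, and of 10 endothelial markers 1 was higher and 6 lower in papilloma and 5 higher in carcinoma than in papilloma. Of 9 T cell markers 8 were lower in papilloma, as were 8 of 8 sebaceous gland markers, 5 of 7 Schwann cell markers and 2 of 8 dermal papilla markers, of which 1 was higher. Their part in the members' differences was not tested.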
